A study of Rattus norvegicus with 8 samples.

Results

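Cytosolic ribosomal protein genes were examined in the periodontal ligament (PDL), the connective tissue that holds the tooth root to the bone, of rats (Rattus norvegicus) at 2 ages. The genes were chosen by name: every symbol in the count table that begins with Rpl or Rps and a number, with Rplp0, Rplp1, Rplp2 and Rpsa, and without the Rps6k kinases, the -ps copies and the like genes with an l after the number. Rpl22l1 was taken as such a like gene, and Rps19bp1 was left out by hand because it encodes a binding protein and not a ribosomal one. The table of 17337 genes holds 78 such symbols. A total of 74 had 10 or more counts in at least 4 of the 8 libraries and were tested among 10420 genes, 30 from the small subunit and 44 from the large one. Each library held total RNA cut by laser micro-dissection from the cervical region of the ligament, the region next to the tooth neck, and was prepared with the SMARTer Ultra Low input kit. Both groups were untreated animals under normal growth: 4 were sampled at 18 days of age (P18) and 4 at 28 days (P28), and the labels give neither strain nor sex. The study's title names Notch signalling and Lamin A, and the only contrast among these libraries is age.

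The ribosome joins amino acids in the order set by a messenger RNA. Its small subunit reads the message and its large subunit forms the peptide bonds. Most proteins of both are needed in equal numbers, and their genes are known for moving together. In mammals their messenger RNAs carry a terminal oligopyrimidine (TOP) start, a C followed by a run of C and T, through which mTOR and Larp1 set how fast these messages are translated. Ligament fibroblasts are known for making and replacing collagen quickly. Most of these genes have processed copies elsewhere in the genome, so reads that match several places are a known difficulty in counting them.

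The start sites below are shown because the TOP run is the sequence feature the family shares. They belong to the 12 members among the lowest p, the largest and the smallest fold changes that have an entry in the RefSeq promoter table (build GRCr8). Each line holds the 30 bases around the annotated start, 15 on either side, in the direction of transcription, with the longest run of C and T in capitals. The counts themselves were made on another build, rn6.
Rpl41, chr7:1563483-1563512, minus strand: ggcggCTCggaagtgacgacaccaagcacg
Rpl24, chr11:58128391-58128420, minus strand: gaatttagggaggagaTTCTCTaccctata
Rps27, chr2:177964592-177964621, minus strand: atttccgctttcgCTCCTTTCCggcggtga
Rpl13a, chr1:104748899-104748928, minus strand: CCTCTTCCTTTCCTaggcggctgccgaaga
Rpl13, chr19:68062499-68062528, plus strand: ctttgcggtgcccgaTCCTTTCCgctcggc
Rps21, chr3:187724023-187724052, plus strand: gaacgagccaCTTCCTTTCTgtgttctccg
Rps28, chr7:15311319-15311348, minus strand: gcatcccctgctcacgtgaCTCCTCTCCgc
Rpl35a, chr11:81235007-81235036, minus strand: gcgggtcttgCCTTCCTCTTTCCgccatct
Rps27a, chr14:107488927-107488956, minus strand: cctaaagggcggTTCCTTCgacccggagac
Rps10, chr20:5700730-5700759, minus strand: gccgcgcacgCCCCTTCCTTTCCagcctcc
Rps2, chr10:14251833-14251862, plus strand: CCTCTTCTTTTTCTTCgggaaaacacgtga
Rps13, chr1:180009646-180009675, minus strand: gccgtttcctacctcgTTCTCTCTTTgctt

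The promoter table matched 63 of the 78 symbols. A C followed by 4 or more C or T within 5 bases of the start was present in 41 of the 63 (65.1%), against 16.2% of all 18936 other protein-coding promoters and 16.4% of those of other tested genes. The longest run in the 30-base window had a median of 10 bases in these genes and 4 in the 7871 other tested genes. A run of 8 or more was present in 68.3% and 10.4% of them. The letters CTTTCC lay within 30 bases of the start, on the transcript strand, in 18 of the 63 (28.6%) and in 2.77% of the other promoters. The run is not the same in every member: Rps10 and Rps2, both lower in mean at P28, hold a long one, and Rpl41 and Rpl24, both higher, do not hold one of 8 bases in this window. The window is placed by the annotated start, so a run missing from it does not show that a message lacks a TOP start. The 39 tested members with the C-started run had a median log2 fold change of 0.48, and the 20 without it had 0.34. With the run defined instead as 7 or more C or T near the start, the order turned: the 49 with it had 0.45 and the 10 without it 0.505. Neither difference was tested.

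Other motifs were searched on either strand over the 300 bases from 250 before to 50 after the start, and each share is given for the matched ribosomal protein genes, for all other promoters and for the promoters of other tested genes, in that order. CCGGAAG, the core bound by ETS factors such as Gabpa, was present in 31.7%, 11.2% and 18.1%. AAGATGG, the core of the YY1 motif, was present in 15.9%, 7.55% and 8.59%. Both were more frequent in the family than in either base. GGGCGG, the GC box, was present in 58.7%, 43.1% and 63.9%. CACGTG, the E-box bound by Myc, was present in 7.94%, 7.26% and 9.34%, and TATAAA, the TATA box, in 11.1%, 13.1% and 6.43%. For these last 3 motifs the family lay between the bases. Each match is a description of letters in this window only. The letters AAGATGG include ATG, and the window runs to 50 bases after the start. Whether matches lay at a start codon was not examined.

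Library totals ran from 5252693 to 26645656 counts, the shallowest being P28 replicate 4. That library also stood apart over all genes: its correlation with the other P28 libraries was 0.748 to 0.765, and theirs with each other was 0.809 to 0.825. At these depths a count of 0 allows a level of up to 0.108 to 0.623 CPM, the counts scaled to a common library size (with TMM factors), counting error only. The 7 ligament genes checked summed to 82340 to 126600 CPM at P18 and 128200 to 176700 at P28, nearly all of it from Col1a1, Col3a1 and Postn. Scx ran from 3.32 to 172 CPM, Aspn was at or near 0 in all 8 libraries, Fmod was called higher at P28 and Tnmd, a marker of mature tendon and ligament cells, was called lower (478 to 732 CPM at P18, 50.9 to 133 at P28). Genes of other cells were counted too, at sums that varied between the libraries and ages. Osteoblast and cementoblast genes summed to 3723 to 5731 CPM at P18 and 5568 to 10150 at P28 (median log2 fold change 1.36, 1 of 6 called higher), and osteoclast genes to 1449 to 1705 and 1020 to 7795 (3.07, 0 of 4 called). Enamel organ genes summed to 15.1 to 4781 and 5.61 to 636 CPM, with 2 of 4 called lower. Erythroid genes summed to 2378 to 7987 and 591 to 4017 CPM and epithelial genes to 22.4 to 568 and 42.2 to 5405, with 0 called in either. Genes of cycling cells summed to 457.6 to 677.6 CPM at P18 and 267.5 to 355 at P28, without overlap (median log2 fold change -0.60, 0 of 6 called). Lymphocyte genes summed to 17.8 to 73.7 and 1.88 to 20.2 CPM, with 0 of 2 called. Their part in the ribosomal protein values was not tested. In tissue RNA, fewer cells of a type and less RNA per cell cannot be told apart.

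Most ribosomal protein genes had a higher CPM at P28 than at P18, but none passed the test over all genes. The log2 fold change (P28 over P18) was above 0 in 67 of the 74 (90.5%), where 50.4% of all genes tested were above 0. The members varied together between libraries, as given below, so counts of members are not counts of independent results. Its median was 0.46, a 1.38-fold difference, with quartiles of 0.23 and 0.72, and the median of all genes was 0.01. With the quasi-likelihood test of edgeR and Benjamini-Hochberg adjustment, an adjusted p under 0.05 called 0 of the 74 higher and 0 lower. Among all genes that rule called 0.518% higher and 0.403% lower. At an unadjusted p under 0.05, 19 members (25.7%) were higher and 0 were lower, and the same rule took 7.47% and 7.1% of all genes. DESeq2's Wald test called 5 higher (6.76%, where 2.87% of all genes were called higher), and limma's voom with quality weights called 6 (8.11%, against 1.72%). These 2 called 0 members lower, where they called 2.49% and 1.3% of all genes lower.

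**Figure D1:**
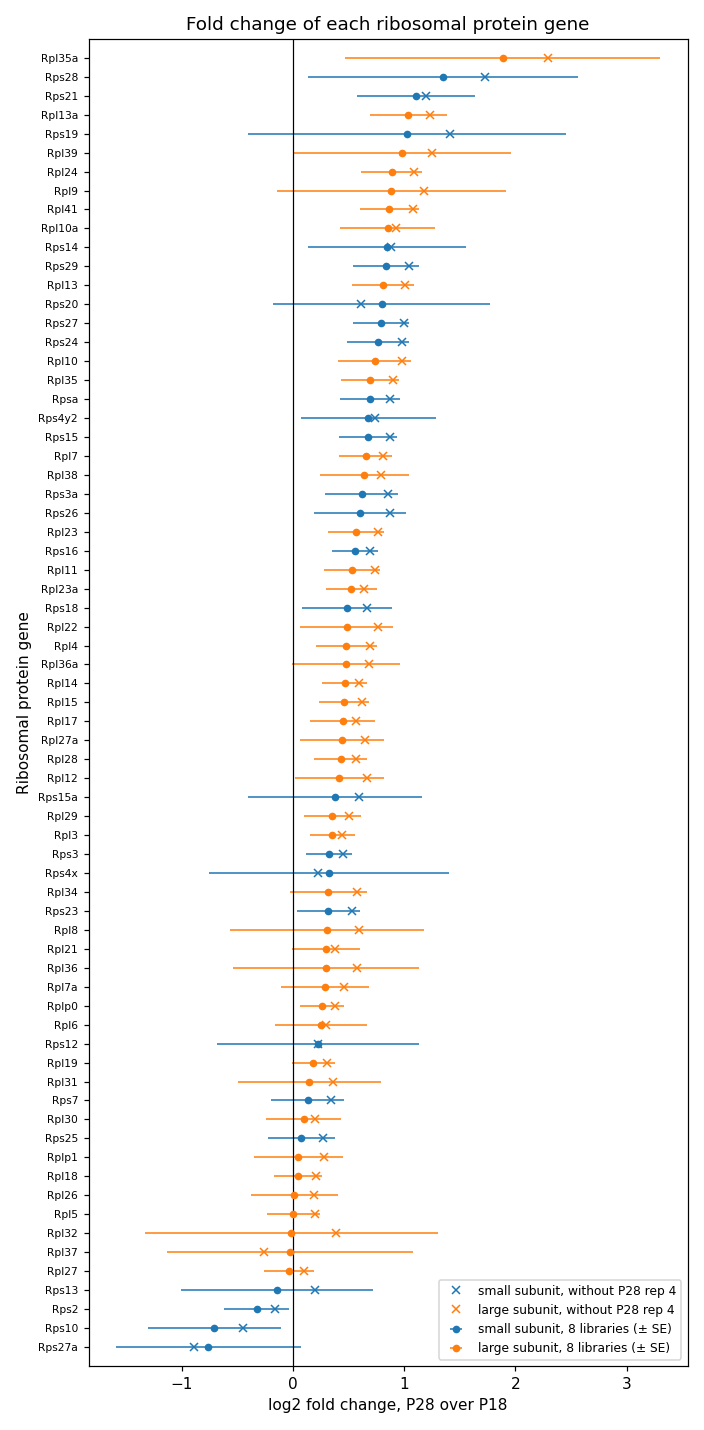
Each row is 1 of 69 of the tested ribosomal protein genes and the x axis is its log2 fold change, P28 over P18; dots with bars are the fit of 8 libraries ± SE and crosses the fit without P28 replicate 4. Dots lie right of 0 for 62 of these 69 genes, and the crosses lie further right than the dots for 64.

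The members varied together within each age as well as between them. Over the 58 members with a mean of at least 10 CPM, pairs had a median correlation of 0.851 within an age. Other genes at that level had -0.003. Between libraries of an age, the median log2 CPM of the members had an SD of 0.43, beside their median log2 fold change of 0.46. As a share of all counts, the 74 genes held 1.65%, 1.34%, 1.26% and 1.21% in P18 replicates 1 to 4. They held 1.82%, 1.92%, 1.99% and 1.04% in P28 replicates 1 to 4. The first 3 P28 libraries were therefore above every P18 library and P28 replicate 4 was below every one. The means were 1.36% ± 0.196 and 1.69% ± 0.442 (SD, n = 4), and without P28 replicate 4 the P28 mean was 1.91% ± 0.0841 (SD, n = 3). The pattern did not rest on the 3 most counted members: without them the other 71 held 0.832% to 1.13% at P18, 1.34% to 1.46% in P28 replicates 1 to 3 and 0.717% in P28 replicate 4.

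**Figure D2:**
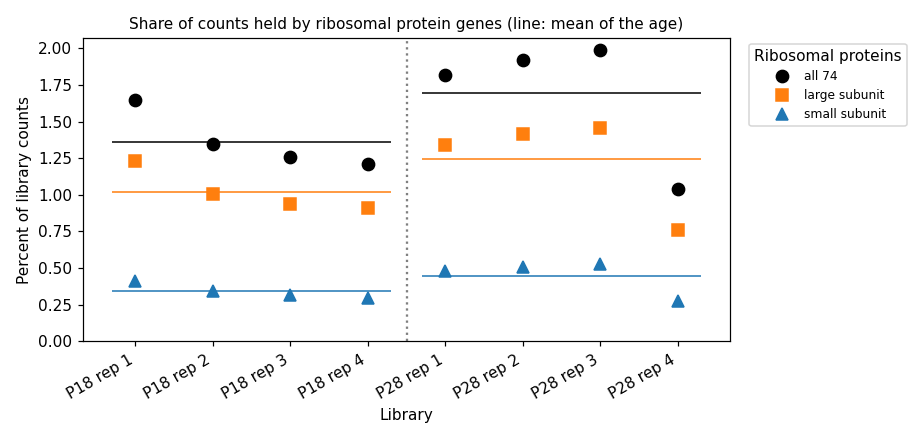
The y axis is the percent of a library's counts held by all 74 ribosomal protein genes (black), by the large subunit (orange) and by the small subunit (blue); lines are the means of each age. P28 replicates 1 to 3 lie at 1.82% to 1.99%, above the 4 P18 libraries, and P28 replicate 4 lies at 1.04%, below them.

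Gene by gene, P28 replicate 4 was the lowest P28 library for 67 of the 74 (90.5%), where it was the lowest for 36.0% of all genes. It lay below every P18 library for 38 members (51.4%, against 32.4% of all genes). P28 replicate 3 was the highest P28 library for 48 members (64.9%, against 26.4%), and P18 replicate 1 the highest P18 library for 63 (85.1%, against 30%). P28 replicates 1 to 3 were all above every P18 library for 41 members (55.4%), where this was so for 9.37% of all genes, and they were all below for 0 (against 9.25%). This split sets aside the library that was the lowest of its age for most members. The shares of members and of all genes are therefore not on equal terms. With P28 replicate 4 included, 6 members (8.11%) did not overlap between the ages with P28 higher, among them Rpl10a, Rps14 and Rps21, and 0 with P28 lower. The same rule took 4.91% and 5.59% of all genes.

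**Figure D3:**
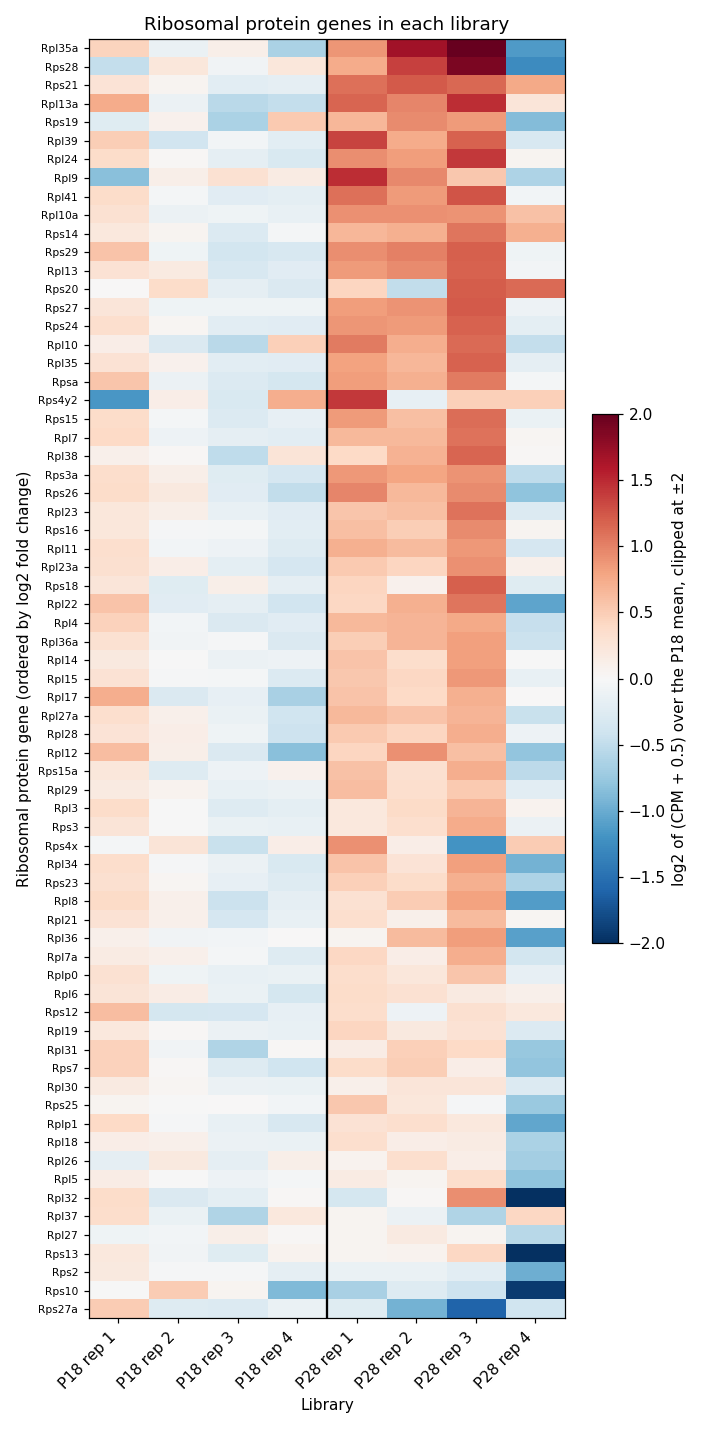
Rows are 69 of the tested ribosomal protein genes ordered by fold change and columns the 8 libraries; colour is the log2 of CPM + 0.5 over the mean of the P18 libraries, red higher and blue lower. P28 replicates 1 to 3 are red over most rows, with medians over all 74 of 0.55, 0.48 and 0.81, and P28 replicate 4 is mostly pale or blue, with a median of -0.27.

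Depth, cell type genes and transcript kinds also differed between these libraries. The shallowest P28 library had the lowest ribosomal protein share of its age, and the shallowest P18 library, replicate 1, the highest. P28 replicate 4 had the highest sums of osteoblast genes (10150 CPM) and of macrophage genes (773 CPM) of all 8 libraries and the lowest sum of neutrophil genes (24.9 CPM). Its ligament sum of 137500 CPM lay within the range of the other P28 libraries. P28 replicate 3, whose ribosomal protein share was the highest, had a macrophage sum of 757 CPM. P18 replicate 1 had the highest enamel organ sum (4781 CPM) of all 8 and the highest epithelial sum (568 CPM) of its age. Short nuclear messages of the respiratory chain, 46 of them tested, summed to 11510 CPM in P28 replicate 4, 12300 to 16920 in the other P28 libraries and 10090 to 11790 at P18. The 4 tested genes of very long transcripts, Ahnak being the largest part, went the same way by library in their sum. At P18 the sum was 928 CPM in replicate 1 and 318 to 544 in the other libraries. At P28 it was 733 in replicate 4 and 1206 to 1487 in the other libraries. Utrn differed: its highest P18 library was replicate 4 (51.3 CPM, against 43.8 in replicate 1), and P28 replicate 3 had 16.4 CPM. All 4 genes had a log2 fold change above 0, with a median of 1.01 and 0 called. The part of any of these in the ribosomal protein values was not tested.

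Leaving out P28 replicate 4 moved 8 members past the threshold. In that fit of 4 against 3 libraries, edgeR called these 8 higher at P28, 10.8% of the family, among them Rpl13, Rpl24, Rpl35, Rpl41, Rps24 and Rps27, where 1.07% of all genes were called higher. It called 0 members lower (1.11% of all genes). The log2 fold change was above 0 in 70 of the 74 (94.6%, against 49.8% of all genes), with a median of 0.62. At an unadjusted p under 0.05, 34 members were higher (45.9%, against 8.6% of all genes) and 0 were lower (against 9.2%). The fold change was larger than with all 8 libraries for 69 members, the exceptions being Rpl37, Rps4x, Rps12, Rps20 and Rps27a. The 8 edgeR calls rest on setting this 1 library aside, P28 replicate 4, which was the lowest of its age for most members. The shares of members and of all genes in this fit are therefore not on equal terms. In voom's quality weights, which ran from 0.823 (P18 replicate 1) to 1.323 (P28 replicate 2), P28 replicate 4 had 0.872 and P28 replicate 3 had 0.866.

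Rpl41, which encodes a very short basic peptide at the interface of the subunits, measured 682, 516, 453 and 459 CPM at P18. At P28 it measured 1133, 954, 1256 and 506 CPM. The first 3 P28 libraries were above every P18 library, and the fourth fell within the P18 range. The fold change was 0.87 ± 0.27 (log2, ± SE) with an adjusted p of 0.147 by edgeR, and 1.08 with 0.0246 without P28 replicate 4. Rpl24, which forms a bridge between the subunits, measured 214, 169, 146 and 135 CPM at P18 and 316, 296, 445 and 172 CPM at P28. The same library alone overlapped, and the fold change was 0.89 ± 0.27 (log2; adjusted p = 0.147 by edgeR).

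Rps27, a zinc-binding protein of the small subunit, measured 266, 212, 213 and 212 CPM at P18 and 402, 421, 527 and 211 CPM at P28. P28 replicate 4 was level with P18 replicates 2 to 4, and the other P28 libraries were well above all of them. On the log2 scale the difference was 0.79 ± 0.25 (adjusted p = 0.163 by edgeR), and without P28 replicate 4 it was 1.00 (0.0257). Rpl13a, which also takes part in an interferon-gamma-dependent block of translation outside the ribosome, measured 104, 57.5, 42.4 and 44.8 CPM at P18 and 140, 122, 175 and 73.3 CPM at P28. Here P18 replicate 1 was above P28 replicate 4, and the log2 difference was 1.04 ± 0.34 (adjusted p = 0.175 by edgeR). Rpl13, of the large subunit, and Rps29, a zinc-binding protein of the small subunit head, were also among the 8 members of lowest p. Rpl13 went from 82.6 ± 17.0 to 144 ± 46.2 CPM and Rps29 from 142 ± 46.7 to 254 ± 82.8 CPM (mean ± SD, n = 4), with edgeR adjusted p of 0.192 and 0.204.

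**Figure D4:**
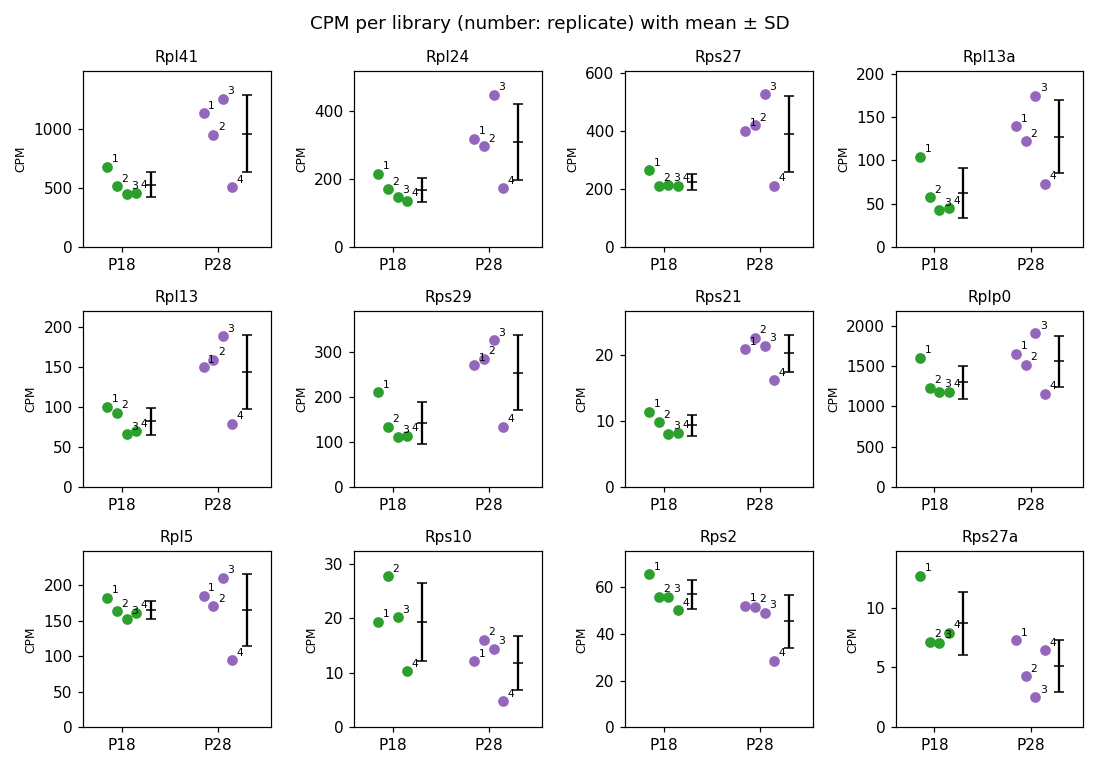
CPM of 12 ribosomal protein genes in each library (dots numbered by replicate, green P18, purple P28), with the mean ± SD beside them; each axis starts at 0 and has its own scale. In Rps21 all 4 purple dots (16.2 to 22.6 CPM) lie above the green ones (8.10 to 11.5), while in Rpl41, Rpl24 and Rps27 the dot numbered 4 at P28 is level with the green ones.

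Among the 4 largest fold changes were members with few counts. Rps28 measured 0.722, 1.47, 1.11 and 1.47 CPM at P18 and 2.34, 3.85, 5.78 and 0.208 CPM at P28, so its P28 libraries lay on both sides of the P18 range. Rpl35a, a large subunit protein mutated in Diamond-Blackfan anaemia, totalled 45 counts at P18 and 107 at P28, with 0 in P28 replicate 4. Their log2 fold changes of 1.35 ± 1.21 and 1.89 ± 1.42 were within 2 SE of 0. Rps21, with 9.40 ± 1.58 CPM at P18 and 20.3 ± 2.80 at P28 (mean ± SD, n = 4), did not overlap between the ages. On the log2 scale it differed by 1.11 ± 0.53 (adjusted p = 0.363 by edgeR).

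A total of 7 members had a log2 fold change below 0: Rpl27, Rpl32, Rpl37, Rps2, Rps10, Rps13 and Rps27a. Their lowest unadjusted edgeR p was 0.258. Rps10, of the small subunit head, measured 19.3, 27.7, 20.2 and 10.3 CPM at P18 and 12.1, 16.0, 14.4 and 4.78 CPM at P28. The ages overlapped, since P18 replicate 4 was below 3 of the P28 libraries, and the log2 fold change was -0.71 ± 0.59 (adjusted p = 0.641). Rps2, which lines the channel where the message enters, measured 65.3, 55.8, 55.7 and 50.04 CPM at P18 and 52.0, 51.5, 49.0 and 28.5 CPM at P28. P28 replicate 4 was the lowest and the other 7 libraries ran from 49.0 to 65.3 CPM. The log2 fold change was -0.32 ± 0.29 (adjusted p = 0.668). Rps27a, which encodes a ribosomal protein fused to ubiquitin, had a mean of 8.69 ± 2.66 CPM at P18 and 5.12 ± 2.15 CPM at P28, or -0.76 ± 0.83 on the log2 scale (adjusted p = 0.725). Rps13 had 7.73 ± 1.11 CPM at P18 and 6.99 ± 3.99 at P28, and its P28 replicate 4 had 1.25 CPM. Without that library its log2 fold change was 0.20 in place of -0.14.

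By role, 3 tested proteins belong to the stalk of the large subunit, which recruits the elongation factors, and 0 of them had an unadjusted p under 0.05. Rplp0, the stalk base, measured 1605, 1228, 1178 and 1184 CPM at P18 and 1651, 1518, 1908 and 1155 CPM at P28. The libraries of the ages overlapped at both ends, and the log2 fold change was 0.26 ± 0.20 (adjusted p = 0.588). Rplp1, the stalk protein that pairs with Rplp2, had 32.9 ± 7.45 and 33.9 ± 12.2 CPM, and Rpl12, beside the stalk base, had 51.1 ± 21.5 and 68.0 ± 28.1 CPM (mean ± SD, n = 4). Their fold changes were 0.05 ± 0.40 and 0.42 ± 0.40 (log2, ± SE), beside the family's median of 0.46. Rpl5 and Rpl11, which carry the 5S RNA into the large subunit and bind Mdm2 when they are free, were unlike in size. Rpl5 measured 182, 163, 153 and 161 CPM at P18 and 185, 170, 210 and 94.1 CPM at P28. Its fold change was 0.00 ± 0.24 (log2, ± SE), with P28 replicate 4 far below the other 7 libraries. Rpl11 went from 306 ± 57.1 to 443 ± 138 CPM, 0.53 ± 0.25 on the log2 scale (edgeR adjusted p = 0.361). The difference between these 2 genes was not tested.

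Of the proteins near the peptide-forming centre and the subunit face, Rpl3 had a log2 fold change of 0.35 ± 0.20, Rpl23 of 0.57 ± 0.26 and Rpl10, which is added last in assembly, of 0.73 ± 0.33. In Rpl10, P18 replicate 4 (438 CPM) and not replicate 1 (346 CPM) was the highest of its age. The proteins lining the exit tunnel, Rpl4, Rpl17 and Rpl39, had log2 fold changes of 0.48 ± 0.27, 0.45 ± 0.29 and 0.98 ± 0.98. Rpl4 measured 811, 567, 483 and 502 CPM at P18, and 928, 945, 995 and 430 CPM at P28, so that the 4 libraries of P28 lay on both sides of the whole P18 range. Rpl22, an RNA-binding protein that cells can do without for general translation, had 45.8 ± 15.4 and 63.9 ± 31.8 CPM. Rpl38, known for its part in the translation of Hox messages, had 23.1 ± 5.01 and 35.9 ± 12.2 CPM.

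In the small subunit, Rpsa, also known as the laminin receptor, measured 511, 323, 289 and 274 CPM at P18 and 626, 573, 718 and 338 CPM at P28. Only P28 replicate 4 fell into the P18 range, and the log2 difference was 0.69 ± 0.27 (adjusted p = 0.249 by edgeR). Rps3, at the message entry and also known in DNA repair, had 0.33 ± 0.21 on the log2 scale, and Rps23, in the decoding centre, had 0.32 ± 0.28. Rps26, at the message exit, had 0.60 ± 0.41. Rps14, whose loss underlies the anaemia of the 5q- syndrome, measured 7.31, 6.47, 5.11 and 6.10 CPM at P18 and 10.2, 10.5, 13.8 and 10.6 CPM at P28. The ages did not overlap and P28 replicate 4 was among its higher libraries, but at these counts the log2 difference of 0.85 ± 0.71 had an adjusted p of 0.639 by edgeR. Rps4x, the X-linked form of its protein, had 2.33 ± 0.56 and 2.92 ± 1.71 CPM.

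The 30 small subunit genes had a median log2 fold change of 0.58, with 26 above 0, and the 44 large subunit genes had 0.43, with 41 above 0. An unadjusted p under 0.05 was reached by 9 and 10 of them, and without P28 replicate 4 each subunit had 4 called members. The 26 large subunit members not named by role or rank ran from -0.04 (Rpl27) to 0.89 (Rpl9) on the log2 scale, with 23 above 0, and P28 replicate 4 was the lowest P28 library in 25 of them. The 11 such members of the small subunit ran from 0.08 (Rps25) to 0.80 (Rps20), all above 0.

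Since the family moved together, each member was also given as its part of the family's own counts, which sets the common movement aside. By this measure 11 members (14.9%) were higher in every P28 library than in every P18 library, and 7 (9.46%) were lower. Dividing every tested gene by the same sum gave 1.67% higher and 8.77% lower, a base that is tilted because the sum itself was mostly higher at P28. The sum is also made of the members, so dividing by it takes their shared variation out of them and puts it into other genes. The shares of members and of all genes are therefore not on equal terms, though the share of lower members lay near its base. The higher ones included Rpl7, Rpl10a, Rpl13a, Rpl24, Rpl41, Rps14, Rps15, Rps21 and Rps27, and the lower ones Rpl5, Rpl18, Rps2, Rps10 and Rps13. The parts sum to a fixed whole, so a higher part for some members brings a lower one for others.

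Per 1000 ribosomal protein counts, Rps21 held 0.71, 0.76, 0.70 and 0.72 at P18 and 1.10, 1.24, 0.96 and 1.43 at P28. P28 replicate 4, low for most members in CPM, was here the highest library. Rps2 held 4.05, 4.33, 4.80 and 4.35 at P18 and 2.74, 2.83, 2.19 and 2.51 at P28, with all 4 P28 libraries below the P18 ones. Rpl5 held 11.3, 12.7, 13.2 and 14.0 at P18 and 9.74, 9.35, 9.41 and 8.31 at P28, also without overlap. Rpl41 held 42.3, 40.0, 39.1 and 39.9 at P18 and 59.7, 52.4, 56.2 and 44.7 at P28, all above. Rplp0, in contrast, held 95.3 to 103 at P18 and 83.4 to 102 at P28, which overlap.

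How firmly a member could be measured followed its counts. The SE had a Spearman correlation of -0.936 with the mean CPM over the 74 members, which share the same libraries, while the log2 fold change had 0.036. CPM is not divided by transcript length, so these levels set no order of abundance between genes. The 27 members with a mean of 100 to 1000 CPM were all above 0, with a median log2 fold change of 0.53, and 16 of them had an unadjusted p under 0.05. Of the 28 between 10 and 100 CPM, 3 had such a p, and of the 16 under 10 CPM, 0 had. Of the 3 members at 1000 CPM or more, 0 had such a p either, with a median log2 fold change of 0.26.

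A total of 4 symbols did not pass the count minimum. Rps9 had 0 counts in all 8 libraries, Rplp2 had 2 counts at P18 and 1 at P28, Rpl37a had 8 and 0, and Rps6, the protein that S6 kinases phosphorylate, had 13 and 5. Just inside the minimum were Rps19, another gene of Diamond-Blackfan anaemia, with 34 and 42 counts, and Rpl35a with 45 and 107. These are proteins of nearly every ribosome, and the RefSeq gene table (GRCr8) names 5 to 17 copies of the 4 genes under the minimum, so a count near 0 here cannot be read as absence of the message. How reads that match several copies were counted is not given in the sources used here. Over the 78 symbols that table names 1100 copies, with a median of 14.5 per symbol and from 0 (Rps4y2) to 36 (Rps2). The number of copies was only weakly related to the mean CPM (Spearman -0.176 over 78 symbols, a description), and the 4 symbols under the minimum had a median of 14. The levels of members with many copies are uncertain, and the part of reads with several matches in the fold changes was not tested.

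**Figure D5:**
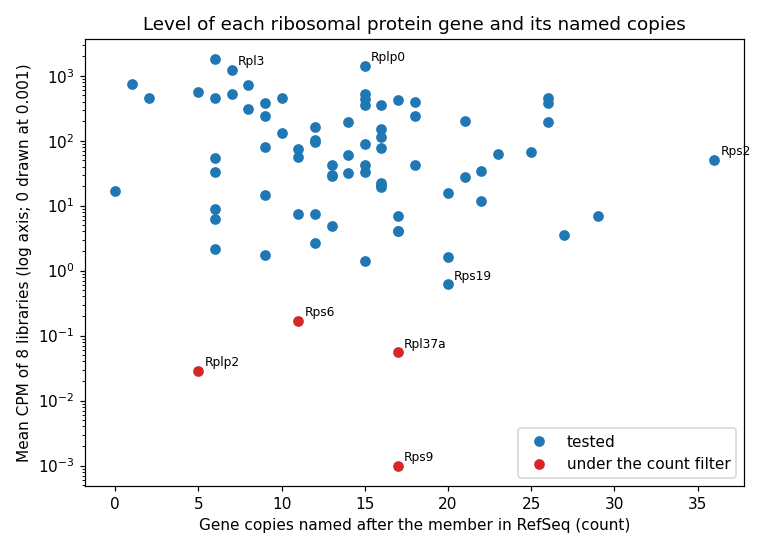
Each dot is 1 of the 78 ribosomal protein symbols, with the number of copies named after it in RefSeq on the x axis and its mean CPM over 8 libraries on a log y axis (0 is drawn at 0.001). The 4 symbols under the count minimum (red) have 5 to 17 copies, within the range of the tested ones (0 to 36).

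Genes that work with the ribosome were read from the same fit. Of 14 assembly and TOP partners, 0 were called, with 8 above 0 and a median log2 fold change of 0.19. Tpt1, a TOP message that encodes the translationally controlled tumour protein, had 383 ± 88.3 CPM at P18 and 574 ± 127 at P28, or 0.58 ± 0.23 on the log2 scale (adjusted p = 0.249 by edgeR). Fau, which encodes a small subunit protein fused to a ubiquitin-like one, had 0.59 ± 0.27. Eef1a1, the elongation factor that brings charged tRNA and itself a TOP message, lay on the other side: it measured 129, 169, 165 and 157 CPM at P18 and 62.7, 163, 53.1 and 54.6 CPM at P28. P28 replicate 2 alone fell among the P18 libraries, and the log2 difference was -0.89 ± 0.35 (adjusted p = 0.25 by edgeR). Without that library the fold change was -1.45 with an adjusted p of 0.0203.

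The 46 ribosome biogenesis genes tested had a median log2 fold change of -0.34, with 14 above 0 (50.4% of all genes were) and 0 called. At an unadjusted p under 0.05, 2 were higher and 4 lower, where 7.47% and 7.1% of all genes were, so neither count stands far from the base. Wdr75, a nucleolar factor for transcription and processing of ribosomal RNA, measured 68.2 ± 25.1 CPM at P18 and 23.9 ± 9.89 at P28 (-1.52 ± 0.41 on the log2 scale, adjusted p = 0.102 by edgeR). Ltv1, which helps to build the small subunit, measured 60.0 ± 12.5 and 31.6 ± 5.03 CPM (-0.93 ± 0.30, adjusted p = 0.162). Neither overlapped between the ages. The 41 initiation and elongation factors had a median of -0.01, with 0 called. Their lowest p values were those of Eif2b3, a subunit of the exchange factor for eIF2 (-1.34 ± 0.37, adjusted p = 0.107), and Eif4a1, the helicase of initiation (-0.61 ± 0.18, adjusted p = 0.143).

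Of 31 genes of mTOR signalling and TOP control, 0 were called and 14 were above 0, with a median of -0.09. Lamtor4, a part of the lysosomal Ragulator complex that anchors mTOR complex 1, had 0.80 ± 0.21 (adjusted p = 0.10 by edgeR), and the kinase gene Rps6ka3 had -1.91 ± 0.52 (adjusted p = 0.107). The short respiratory chain messages, listed because their transcripts are short like those of ribosomal proteins, had 39 of 46 above 0, with a median log2 fold change of 0.32. At an unadjusted edgeR p under 0.05, 15 of the 46 were higher and 0 lower. By that rule 19 of the 74 ribosomal protein genes and 7.47% of all genes were higher. Without P28 replicate 4, edgeR called 3 of the 46 higher, where it called 8 of the 74 and 1.07% of all genes higher. Of the 46, Cox7b was called in the 8 libraries (144 ± 16.1 to 281 ± 56.3 CPM, 0.97 ± 0.20, edgeR adjusted p = 0.0465). That call was lost without any 1 library other than P28 replicate 4, with an adjusted p of up to 0.171. Whether transcript length has a part in the ribosomal protein values was not tested.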

How the data were processed

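The values are raw counts per gene symbol as the authors deposited them. The submitters' processing notes list edgeR 3.16.5, HTSeq 0.9.1, STAR 2.5.3a and build rn6. The sources used here do not give the strand setting or the treatment of reads with several matches. A further 40 columns of the table belong to other samples and stayed out. Genes with 10 or more counts in at least 4 of 8 libraries were tested with edgeR 4.0.16 in R 4.3.3 (quasi-likelihood, 2-sided, TMM, age as the only term, 4 libraries per age). Calls needed an adjusted p (Benjamini-Hochberg) under 0.05 over all 10420 genes. The SE was taken as the absolute log2 fold change over the square root of F. DESeq2 1.42.0, voom of limma 3.58.1, other scalings, other filters and leaving out each library were alternatives. The steps were tested on simulated data. Members and lists were chosen with earlier results of these data known. Named were the 8 members with the lowest p, the 4 with the largest and the 4 with the smallest fold change, members listed by role, those at the count minimum, the 2 genes of lowest p in each related list, and the copies and like genes. Rps24, Rpl35 and others outside this rule were named after their values were seen. Some genes that the rule names, and values that need them, are not reported here, though counts over the family include them. The labels describe 4 animals per age, so p-values measure the spread between animals and their dissections. Same-numbered libraries are different animals.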

Additional observations from a re-analysis of the deposited data

Results flagged for a closer look

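Within an age, 11 of the 104 groups of 4 libraries examined (named members and related genes, each age apart) held a library far from the other 3 by the size of its gap relative to the whole range (Dixon's 95% limit for 4 values). Chance alone flags about 1 in 20 groups, and the groups share the same 8 libraries.

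In P18 replicate 1, 4 members stood high: Rplp0 at 1605 CPM (the others 1178 to 1228), Rps27 at 266 CPM (212 to 213), Rpl22 at 68.7 CPM (35.2 to 40.6) and Rps27a at 12.6 CPM (7.07 to 7.88). In P28 replicate 4, 3 members stood low: Rpl4 at 430 CPM (the others 928 to 995), Rplp1 at 15.8 CPM (38.0 to 41.5) and Rps2 at 28.5 CPM (49.0 to 52.0). In P28 replicate 3, Rps14 at 13.8 CPM (10.2 to 10.6) stood high.

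Outside the family, Eef1a1 stood high in P28 replicate 2 at 163 CPM (53.1 to 62.7). Rpl39l stood high in P28 replicate 4 at 17.2 CPM (0.325 to 2.64), and Atf4 stood low in P18 replicate 3 at 307 CPM (431 to 450).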

How the results depend on the processing

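The 0 calls among ribosomal proteins held under other scalings, other filters and the block by replicate number. Higher calls became 5 with DESeq2's Wald test, 6 with voom and 0 to 8 with 1 library left out. All genes called numbered 54 higher and 42 lower, 41 and 69 by library totals alone, 16 and 10 with the replicate block, 299 and 259 with the Wald test, 179 and 135 with voom, and 4 to 112 and 4 to 116 with 1 library left out. Library totals put the median of all genes at -0.13 and that of the family at 0.33; its median ran from 0.34 to 0.62, and its members above 0 from 62 to 70, with 1 library left out. Rpl5 turned to -0.0183 (upper quartile), -0.13 (library totals), -0.0022 (no filter), -0.0526 (block) and ran from -0.13 to 0.20 with 1 library left out. Rplp1 turned to -0.0683 (library totals) and -0.0217 (block), and ran from -0.062 to 0.28. With 1 library left out Rps13 ran from -0.40 to 0.20 and Rps4x from -0.0321 to 0.65. The adjusted p of Cox7b was 0.0547 (upper quartile), 0.0741 (library totals) and 0.0979 (block). The causes were not tested. Same-numbered libraries did not deviate together (r from -0.022 to 0.001), so the numbers do not pair them. Depth limits the 16 members under 10 CPM.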

Other observations

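Paralogs and like genes of ribosomal proteins were counted in the same libraries; of those given here, the family counts include Rps4y2 alone. Rpl22l1, the paralog of Rpl22, measured 67.6, 53.9, 38.1 and 37.2 CPM at P18 and 81.4, 121, 101.4 and 41.5 CPM at P28. Its first 3 P28 libraries were above every P18 library and the fourth was not, with a log2 difference of 0.81 ± 0.35 (adjusted p = 0.300 by edgeR). Rps27l, a p53-responsive paralog of Rps27, measured 240, 245, 233 and 251 CPM at P18 and 290, 307, 344 and 292 CPM at P28. The ages did not overlap, and P28 replicate 4 was level with replicate 1, unlike in Rps27 itself. On the log2 scale the difference was 0.35 ± 0.16 (adjusted p = 0.355 by edgeR). Rpl36al ran from 47.9 to 75.6 CPM at P18 and from 39.5 to 94.0 at P28.

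Rpl3l, the striated muscle paralog of Rpl3, had 75 and 55 counts in P18 replicates 2 and 4 and 29 in P28 replicate 2, and 0 to 2 counts in the other 5 libraries. Rpl39l, a paralog known from the testis, had 1, 1, 46 and 59 counts at P18 and 45, 13, 4 and 83 at P28, with no order by age. Rps4y2, a gene named as a form of Rps4, measured 5.50 to 21.6 CPM at P18 and 11.5 to 35.0 at P28. Rps19bp1, a protein that binds Rps19, measured 15.8 to 19.2 CPM at P18 and 15.6 to 32.4 at P28.

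Of 16 genes of ribosome stress and quality control, 12 were above 0 with a median log2 fold change of 0.22, and 0 were called. Atf4, the transcription factor made when initiation is restrained, measured 448, 431, 307 and 450 CPM at P18 and 721, 503, 759 and 658 CPM at P28. The ages did not overlap, with a log2 difference of 0.69 ± 0.20 (adjusted p = 0.125 by edgeR). Gcn1l1, the ribosome-bound activator of the kinase Gcn2, had 0.88 ± 0.33 (adjusted p = 0.241), and Ndufs5, a short subunit of respiratory complex I, had 1.19 ± 0.28 (adjusted p = 0.0730).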
